A study of Homo sapiens with 12 samples.

Results

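Levels of 43 messenger RNAs for DNA replication and S phase were followed in MDA-MB-231 cells, a human triple-negative breast cancer line, after BITC, ZA, both or neither. The 43 genes were taken by symbol from a list of licensing factors, helicase subunits, polymerases, clamp and clamp loader, single-strand binding protein, lagging-strand enzymes, deoxynucleotide synthesis, cyclin E, E2F1 and UHRF1. All 43 were found among the 27412 genes with counts, and all 43 were among the 14950 that passed the filter on low counts and were tested. The 4 groups were 2 µM BITC with 1 µM ZA (BITC+ZA), 2 µM BITC, 1 µM ZA, and vehicle, each with 3 libraries. Every group was exposed for 24 h, and all 4 groups, vehicle included, had DMSO at 0.02% and water at 0.1%. The labels abbreviate both compounds. BITC is commonly short for benzyl isothiocyanate, a reactive plant compound, and ZA is zoledronic acid, a bisphosphonate. Dishes were plated in triplicate, and nothing more states that the 3 libraries of a group were separate cultures, so p-values may measure technical spread only.

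Before a cell copies its DNA, the origin recognition complex with CDC6 and CDT1 loads the MCM helicase onto origins during G1. At the start of S phase, cyclin E with its kinase and E2F1 favour entry, and MCM10, CDC45 and the GINS complex turn the loaded helicase into a moving one. Primase and polymerase alpha then start each strand, polymerases epsilon and delta extend it on the PCNA clamp loaded by replication factor C, RPA coats single strands, FEN1 and LIG1 join lagging-strand pieces, and ribonucleotide reductase, thymidylate synthase and thymidine kinase supply deoxynucleotides. Many of these genes are textbook targets of E2F factors and are transcribed around the passage into S phase, so in cultured cells their RNA commonly follows the share of cells near that passage. In bulk RNA, fewer cells in a phase and less RNA per cell cannot be told apart.

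Promoters of 4 of the genes are shown because their RNAs were called different in at least 1 comparison, with E2F-type letters in MCM6 and POLA1 and without them in RRM1 and PRIM2. Each line holds the 250 bases before the most upstream RefSeq start listed for the gene, on its own strand, in build GRCh38.p14. Capitals mark matches to E2F-type letters. The windows are chr2:135876444-135876693 on the minus strand for MCM6, chrX:24693668-24693917 on the plus strand for POLA1, chr11:4094435-4094684 on the plus strand for RRM1 and chr6:57314555-57314804 on the plus strand for PRIM2.
MCM6: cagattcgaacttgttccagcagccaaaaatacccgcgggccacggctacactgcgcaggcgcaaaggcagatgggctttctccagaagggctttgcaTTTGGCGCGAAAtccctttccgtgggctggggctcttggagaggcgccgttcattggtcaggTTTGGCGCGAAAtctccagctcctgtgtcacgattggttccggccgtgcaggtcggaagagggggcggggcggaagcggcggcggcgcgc
POLA1: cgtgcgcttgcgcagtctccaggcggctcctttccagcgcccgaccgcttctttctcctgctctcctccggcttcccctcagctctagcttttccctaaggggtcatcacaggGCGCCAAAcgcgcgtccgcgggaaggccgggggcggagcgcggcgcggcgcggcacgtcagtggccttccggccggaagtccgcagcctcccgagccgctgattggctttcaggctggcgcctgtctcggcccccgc
RRM1: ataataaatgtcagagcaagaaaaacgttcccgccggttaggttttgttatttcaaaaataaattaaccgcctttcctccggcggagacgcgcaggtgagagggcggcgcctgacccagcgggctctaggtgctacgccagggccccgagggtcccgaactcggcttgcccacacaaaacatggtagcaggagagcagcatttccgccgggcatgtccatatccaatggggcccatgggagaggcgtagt
PRIM2: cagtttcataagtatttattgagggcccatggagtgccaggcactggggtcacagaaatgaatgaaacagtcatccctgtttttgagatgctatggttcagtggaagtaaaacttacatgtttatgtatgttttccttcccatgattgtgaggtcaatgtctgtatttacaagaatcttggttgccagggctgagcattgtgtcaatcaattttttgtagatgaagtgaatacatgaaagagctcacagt
MCM6 holds 4 matches, in 2 pairs that overlap, 1 pair on each side of the middle of its window, and POLA1 holds 1 on the other strand. The letters searched on both strands were TTTCCCGC, TTTCGCGC, TTTGCCGC and TTTGGCGC, and for other boxes CCAAT and GGGCGG. The set of RefSeq promoters used here held 36 of the 43 genes. Of the 36, 14 (38.9%) contained E2F-type letters, against 4.53% of the promoters of 10333 tested genes. CCAAT was present in 55.6% of the 36 and in 35.0% of the 10333, and GGGCGG in 72.2% and 67.2%. TTTGAA or TTCGAA, letters of the cell cycle homology region found in many mitotic genes, were present in 5.56% and 9.58%. These are matches of letters and not measured binding sites.

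Across genes, the measured levels covered a wide range on the FPKM scale, which is per gene length. In vehicle libraries the lowest mean was 1.17 ± 0.0509 FPKM for POLA2, the accessory subunit of polymerase alpha, and the highest was 175 ± 2.89 FPKM for PCNA, the sliding clamp. The median of the 43 was 18.8 FPKM, against 4.48 FPKM for all tested genes. After PCNA came TK1, the salvage thymidine kinase, at 129.8 ± 4.39 FPKM and MCM3 at 128 ± 1.22 FPKM, which did not differ beyond their spread. MCM7 at 93.6 ± 2.32 FPKM and RRM1, the large subunit of ribonucleotide reductase, at 81.9 ± 1.86 FPKM followed. Near the low end were GINS3 at 2.49 ± 0.204 FPKM and ORC6 at 8.34 ± 1.06 FPKM.

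Between treatments, the same genes differed little. The ratio of a gene's highest to its lowest group mean of CPM (counts scaled to the normalised library total) lay between 1.02 for CDC45 and 1.30 for PRIM1, with a median of 1.14, and was under 1.2 for 35 of the 43. Summed over the 43 genes, the level was 5294 ± 30.3 CPM after BITC+ZA, 5521 ± 44.7 CPM after BITC, 5411 ± 56.2 CPM after ZA and 5432 ± 47.0 CPM in vehicle (SD, n = 3 each). The sum was thus lowest in the BITC+ZA libraries and highest in the BITC libraries, and neither range touched those of the other groups. All further levels are CPM, which compare a gene between libraries but not genes with each other.

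**Figure D1:**
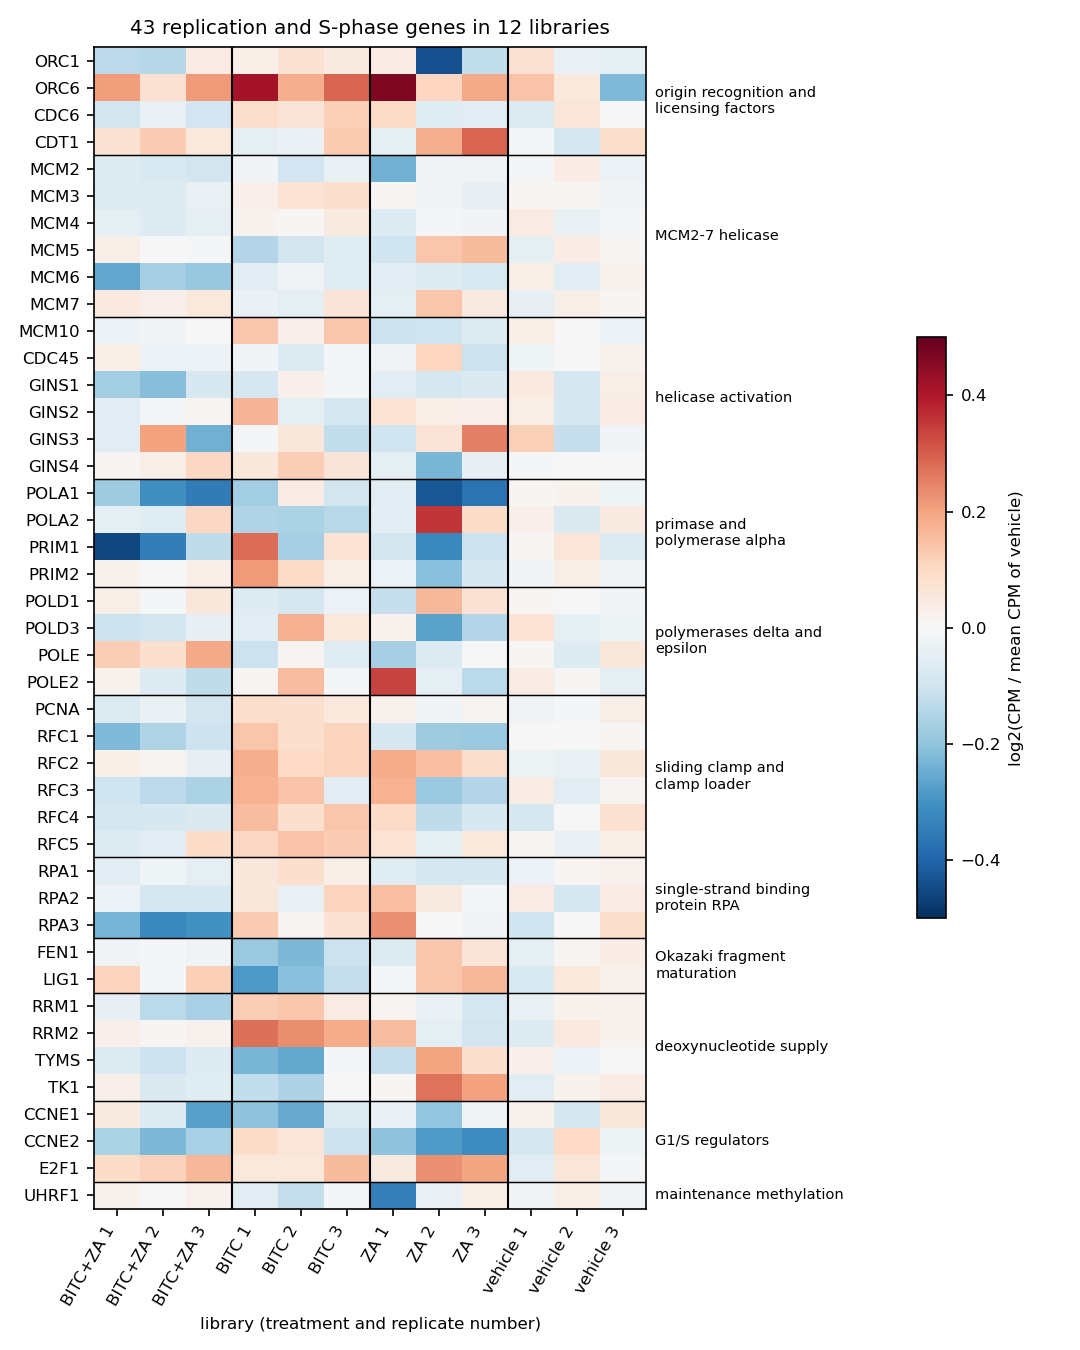
Each gene (down the page, grouped by role) in each of the 12 libraries (across, BITC+ZA to vehicle), as log2 of its CPM over its mean CPM in vehicle, red for higher and blue for lower. RPA3 and MCM6 are blue in the 3 BITC+ZA libraries, RRM2 is red in the 3 BITC libraries, and ZA library 1 departs from ZA libraries 2 and 3 for TK1, POLA1 and MCM5.

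Library totals lay between 15874857 and 17375664 counts, and the 43 genes had from 111 to 7699 counts per library on average. Of the genes listed as markers of this line, VIM, CD44, AXL and CAV1 had median levels of 94.4 to 261 FPKM, while SPARC had at most 0.312 FPKM. Of the receptors listed as low in triple-negative cells, ESR1 had at most 0.00874 FPKM and PGR 0. The third, ERBB2, had 7.35 to 9.92 FPKM, above the vehicle median of 4.48 FPKM for all tested genes. Summed leukocyte and endothelial markers stayed at or below 0.316 and 0.0811 FPKM, and 4 fibroblast markers summed to between 1.89 and 2.52 FPKM. Libraries differed in how their deviations followed the GC content of transcripts, given as a rank correlation across genes. It was 0.268, 0.214 and 0.342 in the BITC+ZA libraries and −0.435, −0.447 and −0.144 in the BITC libraries, and −0.21, −0.014 and −0.0503 in the vehicle libraries. ZA library 1 stood at −0.381 and ZA libraries 2 and 3 at 0.422 and 0.436, so ZA library 1 stood apart from its group. The 13 mitochondrially encoded transcripts took 4.38 to 4.53% of the counts after BITC+ZA, 3.49 to 3.74% after BITC, 3.57 to 4.57% after ZA, with the highest in library 1, and 3.21 to 3.32% in vehicle. Each comparison with vehicle uses the same 3 vehicle libraries, and the comparisons of treatments share libraries likewise.

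With both compounds together against vehicle, 3 of the 43 genes fell and 0 rose: MCM6, a subunit of the replicative helicase, POLA1, the catalytic subunit of polymerase alpha, and RPA3, the small subunit of the single-strand binding protein. A gene was called at an adjusted p below 0.05 in edgeR's quasi-likelihood F test with Benjamini-Hochberg adjustment over all 14950 genes. By this rule 4.9% of all genes were called, and 2.41% of all genes were called lower. The median log2 fold change of the 43 was −0.042, and −0.0010 for all genes. For 16 of the 43, against 32.8% of all genes, the 3 BITC+ZA libraries did not overlap the 3 vehicle libraries, 13 of them lower. The 40 genes not called lay between −0.30 and 0.17. Across the 43 genes the rank correlation of the fold change with the GC content of transcripts was 0.65, and the 3 called lower had 42.7 to 44.0% GC. With an offset for GC content and length in each library it was 0.14, and 5 were called, all lower, with 7.27% of all genes. Without ZA library 1, which enters the estimate of the spread, 9 of the 43 were called, 2 higher and 7 lower, with 14.6% of all genes. The count fell to 0 without vehicle library 3 and to 1 without BITC+ZA library 2, BITC+ZA library 3, vehicle library 1 or vehicle library 2. Under these omissions 1.89 to 2.65% of all genes were called.

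BITC alone raised 1 of the 43, RRM2, the regulated small subunit of ribonucleotide reductase, and lowered 0, against 1.78% of all genes called. The median log2 fold change of the 43 was 0.046, and 0.0015 for all genes. The rank correlation with GC content was −0.49, and 0.080 with the GC and length offset, where 3 were called, 2 higher and 1 lower, with 4.72% of all genes. Nonoverlap of the BITC and vehicle libraries was seen for 17 of the 43, 12 higher and 5 lower, and for 25.2% of all genes. All 6 clamp and clamp loader genes had positive fold changes, between 0.073 and 0.13, and neither lagging-strand gene did, but none of these 8 passed the test. Without ZA library 1 the number called was 5, namely RRM2 and ORC6 higher and FEN1, LIG1 and TYMS lower, with 9.79% of all genes. It was 0 without any 1 of the vehicle libraries, BITC library 1 or BITC library 2, with 0.667 to 0.897% of all genes.

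ZA alone changed 0 of the 43 by edgeR, against 1.06% of all genes called. An unadjusted p below 0.05 was obtained for 8 of the 43, DESeq2 called 2 and limma on log2 FPKM called 0. The median log2 fold change was −0.0051, and 0.016 for all genes, and 9 of the 43 had libraries that did not overlap with vehicle, against 16.4% of all genes. The rank correlation with GC content was 0.49, and 0.32 with the GC and length offset, where 4 were called, all lower, with 2.33% of all genes. Without ZA library 1, however, 11 of the 43 were called, 6 higher and 5 lower, with 16.3% of all genes. These were CDT1, MCM5, LIG1, TYMS, TK1 and E2F1 higher, and ORC1, POLA1, POLD3, RFC1 and CCNE2 lower.

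Against BITC alone, the combination lowered 9 of the 43 and raised 3, with 14.7% of all genes called, 6.6% higher and 8.15% lower. The 9 were CDC6, MCM6, PRIM1, PCNA, RFC1, RFC4, RPA3, RRM1 and RRM2, and the 3 were POLE, FEN1 and LIG1. The median log2 fold change was −0.11, and 0.0048 for all genes, and 24 of the 43 had groups that did not overlap, against 38.1% of all genes. The fold changes followed GC content: across the 43 genes, which share the same 6 libraries and are not independent, the rank correlation was 0.81, and 0.49 across all genes. Transcripts of the 3 genes called higher had 54.4 to 58.5% GC and those of the 9 called lower 40.7 to 45.6%. With an offset for GC content and length in each library, the correlation across the 43 was −0.0072 and 9 were called, all lower, with 8.56% of all genes. Of the 12 original calls, RFC1, RPA3, RRM1 and RRM2 held with the offset, and MCM2, MCM3, RFC2, TK1 and E2F1 were called in addition. The original count of 12 was 19 without ZA library 1, with 26.9% of all genes called. It was between 3 and 7 without any 1 BITC+ZA library, BITC library 1 or BITC library 2. Under these omissions 3.43 to 7.29% of all genes were called.

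The combination against ZA alone raised 1 gene, POLE, and lowered 2, RPA3 and TK1. Of all genes 6.95% were called, 3.31% higher and 3.64% lower, and the median log2 fold change of the 43 was −0.041 beside −0.010 for all genes. Here the rank correlation of fold change with GC content across the 43 genes was 0.072. With the GC and length offset it was −0.20, and 4 were called, 2 higher and 2 lower, with 11.1% of all genes. PRIM2 (0.21, adjusted p = 0.00299) and UHRF1 were called higher with the offset, RPA3 and TK1 stayed lower, and POLE lost its call. Without ZA library 1, 6 were called, namely POLE higher and MCM5, MCM6, RPA3, TYMS and TK1 lower, with 12.7% of all genes. The count was 1 without BITC+ZA library 3, with 2.41% of all genes.

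ZA against BITC changed 10 of the 43, with 4 higher (FEN1, LIG1, TYMS and TK1) and 6 lower (MCM10, PRIM2, RFC1, RPA1, RRM2 and CCNE2). Of all genes 10.5% were called, 6.11% higher and 4.44% lower. The rank correlation of the fold change with GC content was 0.71 across the 43 genes and 0.44 across all genes. With the GC and length offset it was 0.18, and 14 genes were called, 3 higher and 11 lower, with 9.88% of all genes, while among all called genes the share that was higher went to 37.6% with the offset, against 57.9% without it. TK1 lost its call with the offset (0.041, adjusted p = 0.522) and the other 9 held. Without ZA library 1 the number called was 23, with 29.6% of all genes. It was 2 or 3 without ZA library 2, BITC library 1 or BITC library 2, with 2.49 to 3.65% of all genes. Without ZA library 3 it was 5, with 4.40%.

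The interaction compares the change under both compounds with the sum of the changes under each. It was called for 1 of the 43, RPA3, with 2.84% of all genes called. ORC6 (−0.39), RFC2 (−0.27, adjusted p = 0.0515) and POLE (0.26, adjusted p = 0.0583) had the next largest values and did not pass the test. The count was 4 without ZA library 1 or 3, with 5.59 and 6.035% of all genes, and 2 without ZA library 2, with 4.42%. It was 0 without BITC+ZA library 2, BITC+ZA library 3, BITC library 1, vehicle library 1 or vehicle library 2. Under these last omissions 0.627 to 0.990% of all genes were called.

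**Figure D2:**
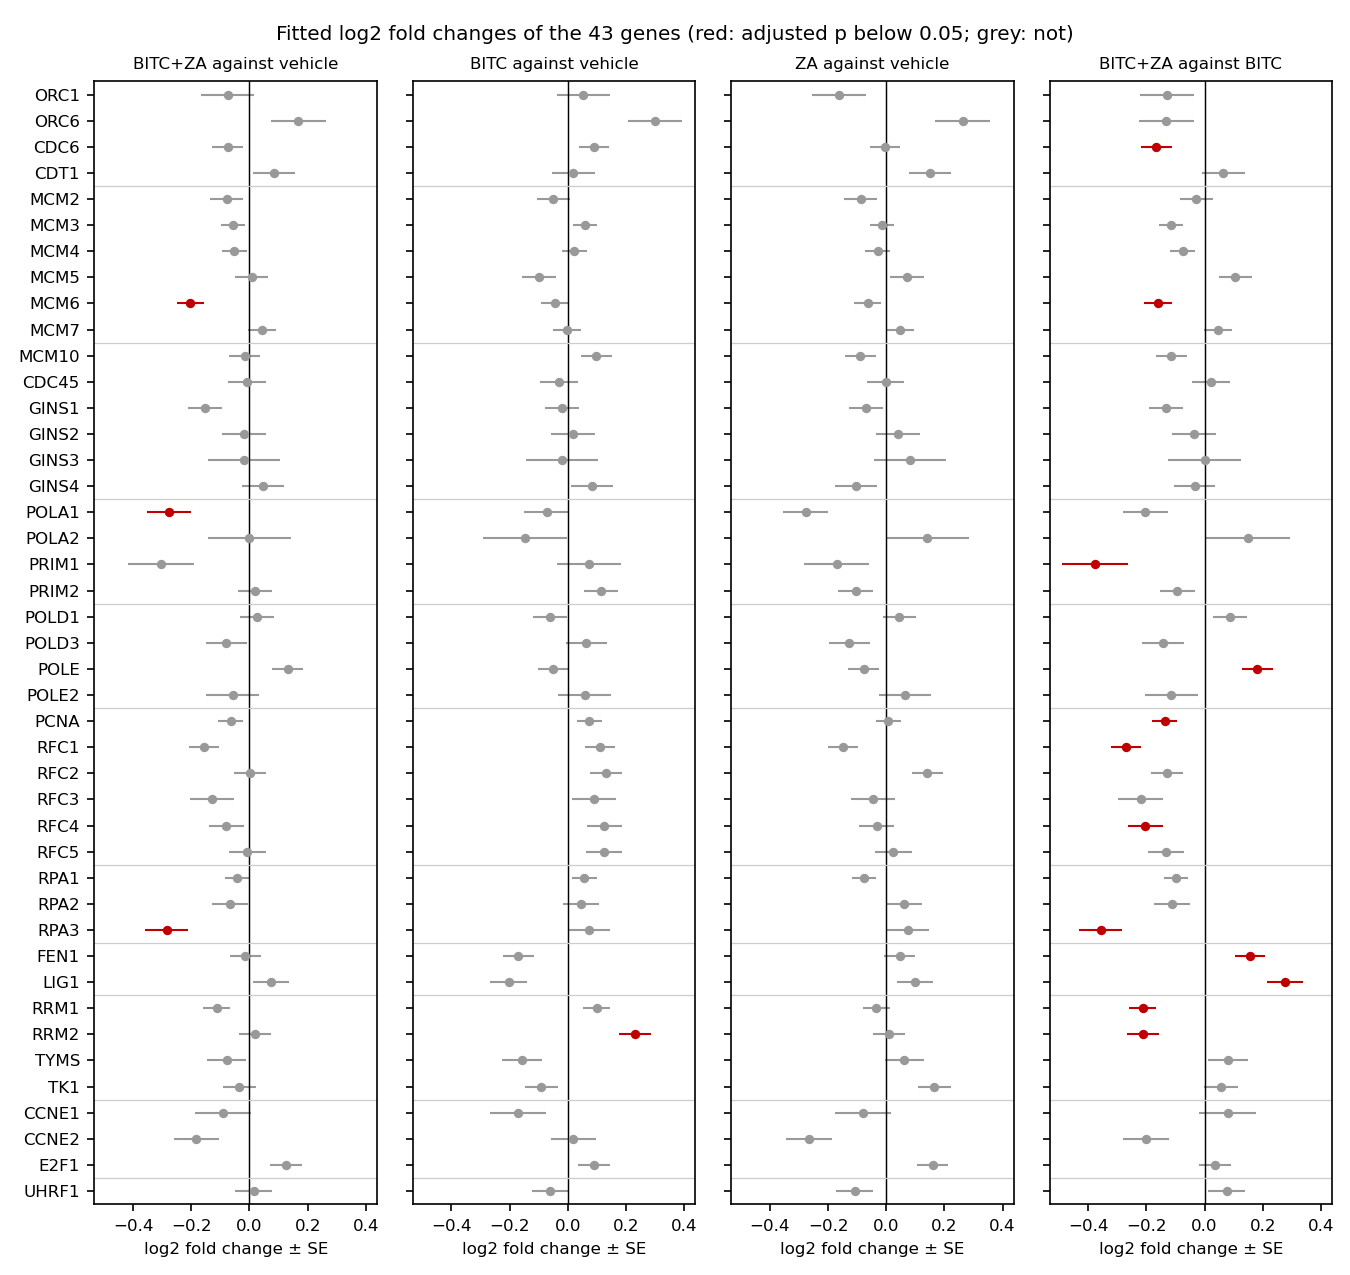
Fitted log2 fold changes (points) with their standard errors (bars) for the 43 genes in 4 comparisons, red where the adjusted p was below 0.05. Red points number 3 for BITC+ZA against vehicle, 1 for BITC against vehicle, 0 for ZA against vehicle and 12 for BITC+ZA against BITC.

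Of the 4 origin recognition and licensing genes, CDC6 was called in 1 comparison and the others in none. CDC6 had 137, 142 and 137 CPM in the BITC+ZA libraries, 155, 153 and 159 CPM in the BITC libraries, 156, 140.3 and 141 CPM in the ZA libraries and 139.5, 152 and 146 CPM in the vehicle libraries. CDC6, which loads the helicase together with CDT1, was lower after BITC+ZA than after BITC with no overlap (log2 fold change −0.17, SE 0.052, adjusted p = 0.0345), and its BITC+ZA libraries overlapped those of vehicle. Under the GC and length offset this was −0.092, adjusted p = 0.152, and the call was also lost without BITC+ZA library 1, 2 or 3, BITC library 1 or 2 or 3 (adjusted p between 0.0574 and 0.124). The CPM of CDT1 were 72.1, 74.9 and 71.2 after BITC+ZA, 66.3, 67.1 and 75.2 after BITC, 66.5, 77.8 and 84.0 after ZA and 68.3, 64.7 and 72.8 in vehicle. CDT1, the licensing factor destroyed at the start of S phase, overlapped between all groups and was called in no comparison, with values from 0.019 to 0.15 against vehicle. ORC1, the large origin recognition subunit, averaged 29.5 ± 2.16 CPM after BITC+ZA, 32.2 ± 0.504 CPM after BITC, 27.7 ± 4.51 CPM after ZA and 31.0 ± 1.48 CPM in vehicle, and ORC6, the smallest one, averaged 40.4 ± 2.15 CPM after BITC+ZA, 44.3 ± 3.60 CPM after BITC, 43.2 ± 5.79 CPM after ZA and 36.0 ± 4.57 CPM in vehicle. The largest fold change of the 43 after BITC was that of ORC6 (0.30, SE 0.094, adjusted p = 0.112), and after ZA it was 0.26, SE 0.094, adjusted p = 0.162. ORC6 did not pass the test, and its vehicle libraries ranged from 30.9 to 39.8 CPM.

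Of the 6 helicase subunits MCM2 to MCM7, MCM6 was the one called by edgeR without the offset. MCM6 (chromosome 2, 135839626 to 135876426, minus strand) had 157, 168 and 165 CPM after BITC+ZA, against 181, 186 and 180.0 CPM after BITC, 181, 179.9 and 178 CPM after ZA and 192, 181 and 191 CPM in vehicle. Each BITC+ZA library lay below each of the other 9. MCM6 fell against vehicle (log2 fold change −0.20, SE 0.047, adjusted p = 0.00920) and against BITC (−0.16, SE 0.047, adjusted p = 0.0240), and against ZA it was not called (−0.14, SE 0.047, adjusted p = 0.0661). With the GC and length offset, it remained called against vehicle (−0.13, adjusted p = 0.0262) but not against BITC (−0.043, adjusted p = 0.569). The call against vehicle was lost without BITC+ZA library 1 or vehicle library 1 or 3 (adjusted p between 0.0540 and 0.0669), and that against BITC without BITC+ZA library 1 or 3 or BITC library 1 or 2 (adjusted p between 0.0723 and 0.106). MCM2 stood at 113, 112 and 111 CPM with both compounds, 117, 110.4 and 115 CPM with BITC, 100.02, 117 and 117 CPM with ZA and 117, 121 and 116 CPM with vehicle. In libraries 1, 2 and 3 of each treatment, MCM7 measured 426, 418 and 427 CPM for BITC+ZA, 402, 399 and 430.2 CPM for BITC, 397, 453 and 424 CPM for ZA and 399.7, 419.6 and 414 CPM for vehicle. Neither MCM2 nor MCM7 was called in any comparison, and their BITC+ZA values were within the range of the other groups, those of MCM2 below every vehicle library. MCM2 had log2 fold changes between −0.088 and −0.049 against vehicle, and MCM7 between −0.0028 and 0.046. With the GC and length offset MCM2 was called lower after BITC+ZA, against vehicle and against BITC, and after ZA against vehicle and BITC. The remaining subunits lay within −0.099 and 0.072 of vehicle on the log2 scale, both limits being those of MCM5. MCM3 was called lower in BITC+ZA against BITC by DESeq2 (−0.11, adjusted p = 0.0268) and with the offset (−0.15, adjusted p = 0.00271). With the offset it was also called lower in ZA against BITC (−0.13, adjusted p = 0.00750). In ZA against BITC, MCM5 was called higher by DESeq2 (0.17, adjusted p = 0.0456).

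Factors that activate the helicase were called in 1 instance, MCM10 in ZA against BITC. MCM10, which triggers unwinding by the loaded helicase, had 80.9, 81.4 and 83.3 CPM after ZA and 95.6, 88.5 and 95.5 CPM after BITC, with no overlap (log2 fold change −0.19, SE 0.053, adjusted p = 0.0248), and 86.1 ± 0.855 CPM after BITC+ZA and 87.1 ± 1.77 CPM in vehicle. That call was lost without BITC library 1 or 3 or ZA library 2 or 3 (adjusted p between 0.0525 and 0.116). CDC45, the helicase cofactor, varied least of the 43. The CPM of CDC45 were 54.1, 51.8 and 51.7 after BITC+ZA, 52.4, 50.3 and 52.5 after BITC, 52.1, 57.0 and 49.1 after ZA and 52.1, 52.9 and 53.5 in vehicle. The 4 groups overlapped, and the log2 fold changes of CDC45 against vehicle were −0.0078 for BITC+ZA, −0.03 for BITC and −0.0024 for ZA. GINS2 had 36.4, 37.7 and 38.1 CPM in the BITC+ZA libraries, 42.6, 36.8 and 35.7 CPM in the BITC libraries, 39.7, 38.6 and 38.6 CPM in the ZA libraries and 38.8, 35.9 and 39.0 CPM in the vehicle libraries. GINS2, a subunit of the same helicase complex, was called in no comparison, and its BITC+ZA libraries lay below the ZA libraries and overlapped the BITC and vehicle libraries. GINS1, GINS3 and GINS4 were not called, with log2 fold changes after BITC+ZA of −0.15, −0.02 and 0.048 against vehicle.

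Polymerase alpha and primase lay down the first bases of each new strand. POLA1 (chromosome X, 24693919 to 24996986, plus strand), the catalytic subunit, had 78.6, 71.8 and 69.7 CPM after BITC+ZA, against 89.3, 90.0 and 87.6 CPM in vehicle. It fell without overlap (log2 fold change −0.28, SE 0.077, adjusted p = 0.0356) and remained called with the GC and length offset (−0.19, adjusted p = 0.0236). The call was lost without BITC+ZA library 2 or 3, vehicle library 1 or 2 or 3 (adjusted p between 0.0904 and 0.170). After ZA, POLA1 had 85.6, 66.0 and 68.9 CPM, so that all 3 were below every vehicle library, library 1 by the least. The fold change under ZA was as large as that under the combination but missed the threshold (−0.28, SE 0.077, adjusted p = 0.0712), and with the offset it was called (−0.24, adjusted p = 0.0121). BITC libraries had 78.8, 91.5 and 83.4 CPM, overlapping vehicle.

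PRIM1, the catalytic subunit of primase, stood at a low level. In libraries 1, 2 and 3 of each treatment, PRIM1 measured 13.8, 14.9 and 17.3 CPM for BITC+ZA, 23.0, 16.9 and 19.9 CPM for BITC, 17.8, 15.1 and 17.6 CPM for ZA and 19.0, 19.8 and 18.1 CPM for vehicle. The BITC+ZA libraries lay below those of vehicle but overlapped those of BITC through BITC+ZA library 3 and BITC library 2. PRIM1 was called lower against BITC (log2 fold change −0.38, SE 0.11, adjusted p = 0.0265), not against vehicle (−0.30, SE 0.11, adjusted p = 0.119), and with the offset it was −0.23, adjusted p = 0.174 against BITC. Leaving out a library ended the call without BITC+ZA library 1 or 2 or BITC library 1 (adjusted p between 0.0857 and 0.194). PRIM1 and its neighbour NACA share 33 bases on the same strand. PRIM2 stood at 81.1, 79.9 and 81.7 CPM with both compounds, 92.5, 85.3 and 81.4 CPM with BITC, 78.2, 69.1 and 75.6 CPM with ZA and 79.0, 81.5 and 79.1 CPM with vehicle. PRIM2, the large primase subunit, was lower after ZA than after BITC (log2 fold change −0.22, SE 0.06, adjusted p = 0.0201) with no overlap, and this call was lost without BITC library 1 or 2 or ZA library 2 (adjusted p between 0.0720 and 0.14998). POLA2, the accessory subunit, was the least abundant of the 43, at 6.72 ± 0.436 CPM after BITC+ZA, 6.06 ± 0.0437 CPM after BITC, 7.40 ± 1.09 CPM after ZA and 6.72 ± 0.293 CPM in vehicle, and was not called.

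Among the polymerases of bulk synthesis, POLE alone was called, and it was higher. POLE (chromosome 12, 132623753 to 132687365, minus strand), the catalytic subunit of the leading-strand polymerase epsilon, had 170.2, 166 and 178 CPM after BITC+ZA, against 145, 158 and 150.01 CPM after BITC, 139, 149 and 156 CPM after ZA and 157, 149.5 and 163 CPM in vehicle. The 3 BITC+ZA libraries were above all others, and vehicle overlapped both single treatments. POLE rose against BITC (log2 fold change 0.18, SE 0.053, adjusted p = 0.0247) and against ZA (0.21, SE 0.053, adjusted p = 0.0179), and against vehicle it missed the threshold (0.13, SE 0.053, adjusted p = 0.157). With the GC and length offset it was not called against BITC (0.015, adjusted p = 0.872) or ZA (0.10, adjusted p = 0.104). The calls were lost without BITC+ZA library 1 or 3 or BITC library 1 or 3 (adjusted p between 0.0575 and 0.140) and, against ZA, without BITC+ZA library 1 or 3 (adjusted p between 0.0578 and 0.119). The CPM of POLD1 were 115, 113 and 118 after BITC+ZA, 108, 107 and 111 after BITC, 105, 127 and 119 after ZA and 114, 113 and 112 in vehicle. POLD1, the catalytic subunit of the lagging-strand polymerase delta, overlapped vehicle in the BITC+ZA and ZA libraries and lay below it in the BITC libraries, with no call. In ZA against BITC its value was 0.11, and with the offset it was called on the other side of 0 (−0.14, adjusted p = 0.0333). Without ZA library 1 and without the offset, POLD1 was instead called higher in that comparison (0.18, adjusted p = 0.00200). POLD3 and POLE2, accessory subunits of delta and epsilon, averaged 60.1 ± 1.499 and 39.5 ± 2.02 CPM after BITC+ZA and 63.5 ± 2.64 and 41.1 ± 1.28 CPM in vehicle, and were not called.

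All 6 genes of the clamp and its loader had negative fold changes in BITC+ZA against BITC, between −0.27 and −0.13, and PCNA, RFC1 and RFC4 passed the test. RFC1 had 99.7, 105 and 108 CPM in the BITC+ZA libraries, 128, 123 and 125 CPM in the BITC libraries, 109.9, 103 and 102 CPM in the ZA libraries and 116, 116 and 117 CPM in the vehicle libraries. RFC1 (chromosome 4, 39287456 to 39366375, minus strand), the large subunit of the loader, lay highest in the BITC libraries, and the 3 BITC+ZA libraries were below every BITC and vehicle library. It fell with both compounds against BITC (log2 fold change −0.27, SE 0.052, adjusted p = 0.00301) and with ZA against BITC (−0.26, SE 0.052, adjusted p = 0.00271). Both RFC1 calls held under each of the 12 omissions of a library and with the GC and length offset (−0.14, adjusted p = 0.0323 and −0.18, adjusted p = 0.00372). Against vehicle, RFC1 was −0.16, SE 0.052, adjusted p = 0.0756 with the combination and 0.11, SE 0.051, adjusted p = 0.291 with BITC, and neither was called. The CPM of PCNA were 245, 251 and 241 after BITC+ZA, 273, 272 and 267 after BITC, 261, 255 and 259.5 after ZA and 254, 255 and 262 in vehicle. PCNA, the clamp itself, was lowest after BITC+ZA and highest after BITC with no overlap between these (log2 fold change −0.14, SE 0.043, adjusted p = 0.0325), and with the offset it was −0.065, adjusted p = 0.261. The PCNA call was lost without BITC+ZA library 1, 2 or 3 or BITC library 1 or 2 (adjusted p between 0.0568 and 0.133).

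RFC4, another loader subunit, had 84.0, 84.6 and 85.0 CPM after BITC+ZA and 99.5, 94.3 and 98.4 CPM after BITC, with no overlap (log2 fold change −0.20, SE 0.06, adjusted p = 0.0244). With the offset it was −0.10, adjusted p = 0.184, and its call was lost without BITC+ZA library 1, 2 or 3 or BITC library 1 or 2 (adjusted p between 0.0577 and 0.103). RFC2 was high after each compound alone, at 89.8 ± 2.86 CPM with BITC and 90.5 ± 3.13 CPM with ZA, but stood at 82.1 ± 2.06 CPM with both and 82.0 ± 2.78 CPM in vehicle. Its interaction missed the threshold (−0.27, SE 0.077, adjusted p = 0.0515) and passed it with the GC and length offset (−0.27, adjusted p = 0.0165). RFC3 and RFC5 were not called in any comparison, with −0.22 and −0.13 in BITC+ZA against BITC.

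RPA3 was called in 4 of the 7 comparisons, more than any other of the 43. RPA3 stood at 41.5, 39.0 and 39.5 CPM with both compounds, 53.2, 49.2 and 51.3 CPM with BITC, 57.1, 48.8 and 48.2 CPM with ZA and 45.5, 48.9 and 51.8 CPM with vehicle. Each BITC+ZA library was below each of the other 9, and the other 3 groups overlapped. RPA3 (chromosome 7, 7636518 to 7718607, minus strand) fell with both compounds against BITC (log2 fold change −0.36, SE 0.074, adjusted p = 0.00436), against ZA (−0.36, SE 0.074, adjusted p = 0.00368) and against vehicle (−0.28, SE 0.074, adjusted p = 0.0228). With BITC alone it was 0.072, SE 0.073, adjusted p = 0.677, and with ZA alone 0.075, SE 0.072, adjusted p = 0.674, both without a call. The interaction was negative (log2 fold change −0.43, SE 0.10, adjusted p = 0.0233).

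The RPA3 calls against BITC and against ZA held under each of the 12 omissions of a library, and all 4 held with the GC and length offset. That against vehicle was lost without BITC+ZA library 2 or 3 or vehicle library 2 or 3 (adjusted p between 0.0743 and 0.135), and the interaction without BITC+ZA library 2 or 3, BITC library 1 or vehicle library 1 or 2 (adjusted p between 0.0623 and 0.0876). With the offset and without ZA library 1 together, the interaction was not called (−0.26, adjusted p = 0.0725). The gene overlaps UMAD1 on the opposite strand over 77897 bases, of which 118 are exonic in both, and without a known strand setting reads in these 118 of its 3232 exonic bases cannot be told apart. UMAD1 averaged 199 counts per library and had a fold change of −0.26 in both BITC+ZA against vehicle (adjusted p = 0.309) and BITC+ZA against BITC (adjusted p = 0.214). RPA1, the large subunit of the same protein, averaged 301 ± 3.38 CPM after BITC+ZA, 322 ± 6.36 CPM after BITC, 293 ± 2.78 CPM after ZA and 309 ± 5.49 CPM in vehicle. It was lower after ZA than after BITC (log2 fold change −0.13, SE 0.042, adjusted p = 0.0416), a call lost under 10 of the 12 omissions (adjusted p up to 0.168) and held only without ZA library 1 or BITC library 3. RPA2, the middle subunit, was not called, with −0.066 for BITC+ZA against vehicle.

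**Figure D3:**
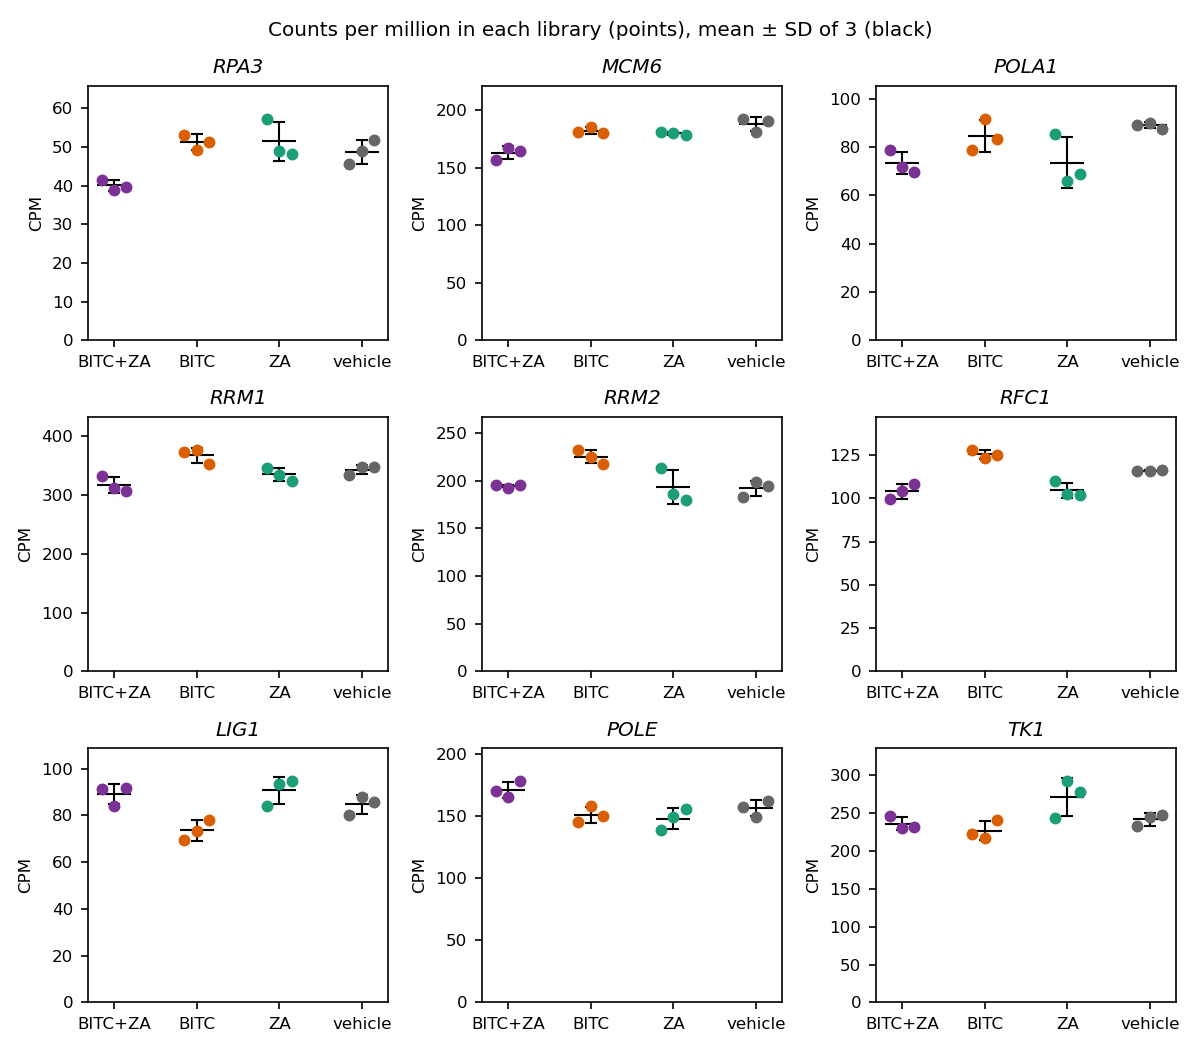
CPM of 9 called genes in each library (points) with the mean and SD of 3 (black), for BITC+ZA, BITC, ZA and vehicle from left to right, on axes that start at 0. RPA3 and MCM6 show the 3 BITC+ZA points below all others, POLE shows them above all others, and RRM2 and RFC1 are highest after BITC.

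Both lagging-strand genes were lowest after BITC. In libraries 1, 2 and 3 of each treatment, LIG1 measured 91.4, 84.1 and 91.9 CPM for BITC+ZA, 69.4, 73.3 and 78.0 CPM for BITC, 84.2, 93.3 and 94.6 CPM for ZA and 80.3, 87.9 and 85.8 CPM for vehicle. LIG1 (chromosome 19, 48115445 to 48170603, minus strand), the ligase that joins Okazaki fragments, was below every other library in the 3 BITC libraries, while the other groups overlapped. LIG1 rose with both compounds against BITC (log2 fold change 0.28, SE 0.063, adjusted p = 0.00616) and with ZA against BITC (0.30, SE 0.062, adjusted p = 0.00384), and for BITC against vehicle it missed the threshold (−0.20, SE 0.063, adjusted p = 0.0991). With the GC and length offset the first was 0.12, adjusted p = 0.0980 and the second 0.16, adjusted p = 0.0194. The call against BITC for the combination was lost without BITC library 1 (adjusted p = 0.0613), and that for ZA was kept under all 12 omissions.

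FEN1 had 163, 163 and 162 CPM in the BITC+ZA libraries, 145, 141 and 153 CPM in the BITC libraries, 157, 180.4 and 172 CPM in the ZA libraries and 159, 166 and 168 CPM in the vehicle libraries. FEN1, the nuclease that trims the flaps of Okazaki fragments, was likewise lowest in the 3 BITC libraries, without overlap. It rose against BITC with both compounds (log2 fold change 0.16, SE 0.053, adjusted p = 0.0473) and with ZA (0.22, SE 0.053, adjusted p = 0.0103), and BITC against vehicle was −0.17, SE 0.053, adjusted p = 0.102. With the offset the values against BITC were 0.079, adjusted p = 0.193 for the combination and 0.12, adjusted p = 0.0375 for ZA. The first call was lost without BITC+ZA library 1, 2 or 3, BITC library 1 or 2, vehicle library 1 or 2 or 3 (adjusted p between 0.0646 and 0.181) and the second without BITC library 1 or 2 or ZA library 2 (adjusted p between 0.0572 and 0.0929). FEN1 and FADS2 share 4265 bases on the same strand, 49 of them exonic in both. FADS2 had −0.14 for BITC against vehicle (adjusted p = 0.151) and was called higher for ZA against BITC (0.18, adjusted p = 0.0182).

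Ribonucleotide reductase, which makes deoxynucleotides, held the gene called after BITC alone. The CPM of RRM2 were 195, 193 and 195 after BITC+ZA, 232, 225 and 218 after BITC, 214, 186 and 180.1 after ZA and 183, 198 and 194 in vehicle. RRM2 (chromosome 2, 10120698 to 10131419, plus strand) lay above all vehicle and BITC+ZA libraries in the 3 BITC libraries. It rose after BITC (log2 fold change 0.23, SE 0.055, adjusted p = 0.0243), and with the GC and length offset it was 0.21, adjusted p = 4.38e-04. Against BITC it fell with both compounds (−0.21, SE 0.055, adjusted p = 0.0134) and with ZA (−0.22, SE 0.055, adjusted p = 0.0112), while both compounds against vehicle gave 0.018, SE 0.055, adjusted p = 0.894. Both calls against BITC held with the offset (−0.14, adjusted p = 0.0131 and −0.19, adjusted p = 9.63e-04). The call after BITC was lost without BITC library 1 or 2, vehicle library 1 or 2 or 3 (adjusted p between 0.0610 and 0.175). Those against BITC were lost, for the combination, without BITC+ZA library 3 or BITC library 1 or 2 (adjusted p between 0.0553 and 0.0760) and, for ZA, without BITC library 1 or 2 or ZA library 2 or 3 (adjusted p between 0.0606 and 0.0833).

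RRM1 stood at 333, 312 and 306 CPM with both compounds, 373, 376 and 352 CPM with BITC, 346, 334 and 323 CPM with ZA and 334, 347 and 348 CPM with vehicle. RRM1, the large subunit, was lower with both compounds than with BITC, without overlap (log2 fold change −0.21, SE 0.046, adjusted p = 0.00541), under each of the 12 omissions and with the offset (−0.10, adjusted p = 0.0493). Against vehicle the combination gave −0.11, SE 0.046, adjusted p = 0.162, and all 3 of its libraries were below the 3 of vehicle. In libraries 1, 2 and 3 of each treatment, TK1 measured 246, 230.1 and 232 CPM for BITC+ZA, 222, 217 and 241 CPM for BITC, 243, 292 and 278 CPM for ZA and 233, 245 and 248 CPM for vehicle. TK1, whose kinase salvages thymidine, was high in ZA libraries 2 and 3 and near vehicle in ZA library 1. TK1 was higher after ZA than after BITC (log2 fold change 0.26, SE 0.057, adjusted p = 0.00570) and lower after the combination than after ZA (−0.20, SE 0.057, adjusted p = 0.0308), with the groups of the second overlapping. The first was lost without BITC library 2 or ZA library 2 (adjusted p between 0.0595 and 0.0606) and the second without BITC+ZA library 2 or 3 or ZA library 2 or 3 (adjusted p between 0.0789 and 0.147). With the offset TK1 was −0.16, adjusted p = 9.34e-04 for the combination against ZA.

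TYMS had 104, 102 and 104 CPM in the BITC+ZA libraries, 93.4, 91.7 and 109 CPM in the BITC libraries, 101, 125 and 116 CPM in the ZA libraries and 111, 107 and 109.7 CPM in the vehicle libraries. TYMS, thymidylate synthase, had overlapping groups except that the BITC+ZA libraries and those of vehicle were apart. It was higher after ZA than after BITC (log2 fold change 0.22, SE 0.068, adjusted p = 0.0377), a call lost under 10 of the 12 omissions (adjusted p up to 0.270) and held only without ZA library 1 or BITC library 3. TYMS shares 3255 bases with ENOSF1 on the opposite strand, 967 of them exonic in both. Without a known strand setting, reads in these 967 of its 2470 exonic bases cannot be told apart. ENOSF1 averaged 555.5 counts per library and had −0.11 for ZA against BITC (adjusted p = 0.474).

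Cyclin E1, cyclin E2 and E2F1, which govern the passage from G1 to S, were called once. The CPM of CCNE1 were 21.7, 20.002 and 17.4 after BITC+ZA, 18.3, 17.6 and 20.01 after BITC, 20.5, 18.3 and 20.7 after ZA and 21.3, 19.8 and 21.8 in vehicle. CCNE1 overlapped between all groups, with log2 fold changes between −0.17 and −0.079 against vehicle. CCNE2 stood at 29.8, 28.4 and 29.6 CPM with both compounds, 35.3, 34.6 and 30.9 CPM with BITC, 28.8, 27.3 and 26.8 CPM with ZA and 31.4, 35.5 and 32.6 CPM with vehicle. CCNE2 was lower after ZA than after BITC (log2 fold change −0.28, SE 0.078, adjusted p = 0.0209), with no overlap. That call was lost without BITC library 1 or 2 or ZA library 2 or 3 (adjusted p between 0.0840 and 0.112), and it held with the offset (−0.23, adjusted p = 0.0337). Against vehicle, CCNE2 was −0.27, SE 0.078, adjusted p = 0.0835 with ZA and −0.18, SE 0.078, adjusted p = 0.179 with both, below every vehicle library in each case and without a call. CCNE2 shares 1629 of its 4397 exonic bases with INTS8 on the opposite strand, where reads cannot be told apart without a known strand setting. INTS8 averaged 903 counts per library and had −0.21 for ZA against BITC (adjusted p = 0.0966). INTS8 was called lower for BITC+ZA against BITC (−0.41, adjusted p = 0.00403).

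E2F1 had 142, 145 and 149 CPM in the BITC+ZA libraries, 138, 138 and 149 CPM in the BITC libraries, 137, 156 and 153 CPM in the ZA libraries and 128, 139 and 133 CPM in the vehicle libraries. E2F1, the transcription factor, had positive values against vehicle after both compounds (0.13, SE 0.055, adjusted p = 0.189), after BITC (0.089, SE 0.055, adjusted p = 0.451) and after ZA (0.16, SE 0.055, adjusted p = 0.140), none of which passed. E2F1 was called higher after BITC with the GC and length offset (0.18, adjusted p = 0.00455). It was then called lower, with the sign turned, in BITC+ZA against BITC (−0.14, adjusted p = 0.0193) and in ZA against BITC (−0.16, adjusted p = 0.00757). Without ZA library 1 and without the offset, E2F1 was instead called higher in ZA against BITC (0.13, adjusted p = 0.0282). The BITC+ZA libraries were above all vehicle libraries, whereas BITC and ZA libraries overlapped them. In libraries 1, 2 and 3 of each treatment, UHRF1 measured 272, 268 and 273 CPM for BITC+ZA, 258, 247 and 266 CPM for BITC, 211, 261 and 274 CPM for ZA and 265, 274 and 266 CPM for vehicle. UHRF1, which brings the maintenance methyltransferase to newly copied DNA, was lowest in ZA library 1, and the other 11 libraries lay between 246.9 and 274 CPM. UHRF1 was called in no comparison, with 0.014 for BITC+ZA, −0.061 for BITC and −0.11 for ZA against vehicle. Under the GC and length offset UHRF1 was called lower after ZA, against vehicle (−0.18, adjusted p = 0.00338) and against BITC (−0.19, adjusted p = 3.51e-04), and higher in BITC+ZA against ZA (0.13, adjusted p = 0.0178).

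**Figure D4:**
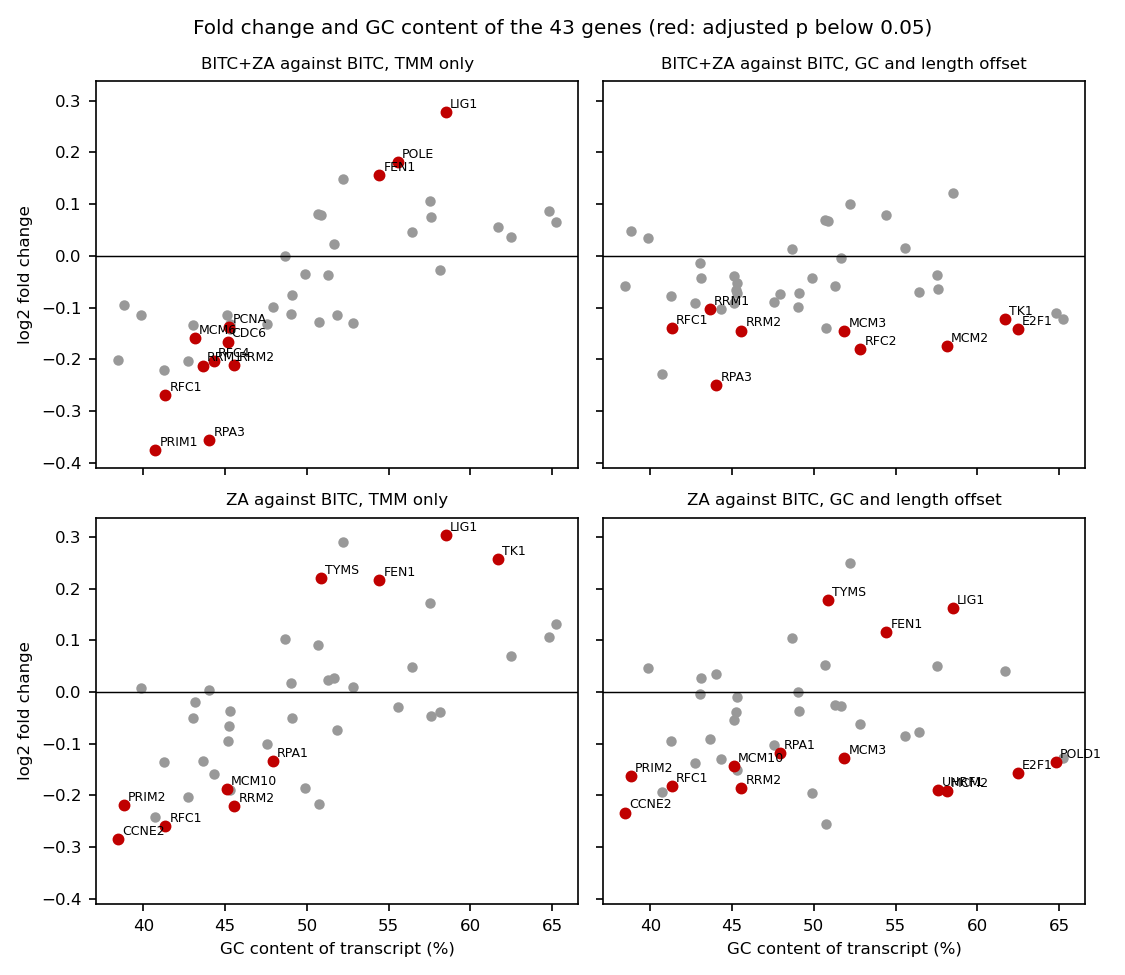
Log2 fold change of the 43 genes against the GC content of their transcripts in percent, for BITC+ZA against BITC (top) and ZA against BITC (bottom), without (left) and with (right) an offset for GC content and length, red where the adjusted p was below 0.05. The upward slope on the left, with rank correlations of 0.81 and 0.71, is −0.0072 and 0.18 on the right.

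Over the 43 genes, 19 were called in at least 1 of the 7 comparisons and 24 in none. The share of all genes called in at least 1 comparison was not counted, so the 19 cannot be set against it. Single comparisons called from 1.06 to 14.7% of all genes. RPA3 was called in 4, RRM2 in 3, and MCM6, POLE, RFC1, FEN1, LIG1 and TK1 in 2 each. In BITC+ZA against vehicle, the median log2 fold change was −0.0097 over the 14 genes with E2F-type letters in the promoter window and −0.038 over the 22 without, with 2 and 0 called by edgeR. Of all genes 4.9% were called there. In BITC+ZA against BITC these medians were 0.041 and −0.12, with 4 of 14 and 7 of 22 called, beside 14.7% of all genes. These values are without the GC and length offset, in a comparison where fold changes followed GC content (rank correlation 0.81). With the offset, where 8.56% of all genes were called, the 4 called genes with such letters, MCM6, POLE, PCNA and LIG1, lost their calls. MCM3 and E2F1, which also hold such letters, were then called lower. Of the 7 without them, RFC1, RRM1 and RRM2 held. MCM2, RFC2 and TK1, also without them, were called lower in addition. The part of GC content in the difference between the medians was not tested.

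A list of 42 further replication factors was set beside the 43. Against vehicle, 4.9% of all genes were called for BITC+ZA, 1.78% for BITC and 1.06% for ZA. With the GC and length offset these shares were 7.27%, 4.72% and 2.33%. For this and the lists that follow, losses of calls are those with the offset or with 1 of the 12 libraries left out. After BITC+ZA against vehicle 1 of the 42 was higher and 0 lower. It was RECQL4, a helicase of origin firing (0.29, SE 0.081, adjusted p = 0.0429), which kept its call with the offset and lost it under 8 of the 12 omissions. With the offset 4 of the 42 were called, 2 higher and 2 lower. After BITC edgeR called 0 of the 42, with 11 at an unadjusted p below 0.05, 1 called by DESeq2 and 0 by limma. With the offset 4 were called after BITC, all higher. After ZA 2 fell, CLSPN, which carries the checkpoint signal at stalled forks (−0.33, SE 0.067, adjusted p = 0.0141), and ATAD5, which unloads PCNA (−0.28, SE 0.068, adjusted p = 0.0353). Both held with the offset, which called 3 after ZA, and their calls were lost under 4 and 8 of the 12 omissions. In BITC+ZA against BITC 4 rose and 12 fell, where 6.6% of all genes were called higher and 8.15% lower, among them CHAF1A, a subunit of the chromatin assembly factor, higher (0.26, SE 0.064, adjusted p = 0.0114), and DBF4, the activator of the CDC7 kinase (−0.32, SE 0.076, adjusted p = 0.00892), and TOP2A, topoisomerase II (−0.24, SE 0.053, adjusted p = 0.00562), lower. With the offset 8 of these 16 calls held, TOP2A and DBF4 among them and CHAF1A not (0.13, adjusted p = 0.0721). In all 11 were called there with the offset, 2 higher and 9 lower, with 8.56% of all genes. CHAF1A and DBF4 lost their calls under 2 of the 12 omissions each. CLSPN was higher with both compounds than with ZA (0.33, SE 0.067, adjusted p = 0.00366). In that comparison 4 of the 42 were called, with 6.95% of all genes. With the offset 13 were called, 9 higher and 4 lower, with 11.1% of all genes. ZA against BITC raised 2 and lowered 8 of the 42, where 6.11% of all genes were called higher and 4.44% lower, and 7 of the 10 held with the offset.

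On a list of 15 further nucleotide supply genes, both compounds against vehicle lowered 2 and raised 0. Among them was SAMHD1, which degrades deoxynucleotides (−0.26, SE 0.053, adjusted p = 0.00390). SAMHD1 held with the offset and under all 12 omissions. In BITC+ZA against BITC, 6 of the 15 fell and 0 rose, with 8.15% of all genes called lower, and 2 of the 6 held with the offset. After ZA 1 of the 15 rose, DTYMK, the thymidylate kinase (0.27, SE 0.053, adjusted p = 0.0122), which held with the offset and was lost under 4 of the 12 omissions. After BITC 0 were called by edgeR, DESeq2 or limma, and 0 had an unadjusted p below 0.05.

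Of 26 other regulators of the G1 to S passage, edgeR called 0 for BITC+ZA and 0 for BITC against vehicle, each with 7 at an unadjusted p below 0.05, while DESeq2 called 1 for BITC+ZA and 0 for BITC and limma 0 for both. With the offset 3 were called for BITC+ZA, 1 higher and 2 lower, and 2 for BITC, 1 higher and 1 lower. For ZA against vehicle 1 was called, CDK6 (−0.21, SE 0.049, adjusted p = 0.0333), which was lost with the offset (−0.11, adjusted p = 0.113) and under 7 of the 12 omissions. CDKN1A, the kinase inhibitor p21, was higher with both compounds than with BITC (0.27, SE 0.07, adjusted p = 0.0134) and was not called against vehicle (0.17, SE 0.069, adjusted p = 0.172). CCNA2, cyclin A2, was lower in the same comparison (−0.16, SE 0.048, adjusted p = 0.0298). Neither call held with the offset, where CDKN1A was 0.13, adjusted p = 0.0929 and CCNA2 −0.024, adjusted p = 0.743. CDKN1A was lost without BITC+ZA library 2, BITC+ZA library 3, BITC library 1 or BITC library 2, and CCNA2 without those or BITC+ZA library 1. MYC was called in none, with 0.073, SE 0.045, adjusted p = 0.376 for both compounds against vehicle. Of 18 repair genes linked to replication, edgeR, DESeq2 and limma called 0 against vehicle after any treatment, with 3 at an unadjusted p below 0.05 after BITC+ZA, 5 after BITC and 2 after ZA. With the offset 2 were called after BITC, 1 higher and 1 lower, and 0 after BITC+ZA or ZA. In all, 6 fell and 0 rose in BITC+ZA against BITC, with 8.15% of all genes called lower, among them CHEK1, the checkpoint kinase (−0.25, SE 0.059, adjusted p = 0.00766), and USP1, which removes ubiquitin from PCNA (−0.25, SE 0.052, adjusted p = 0.00436). With the offset 2 of the 6 held, CHEK1 among them (−0.13, adjusted p = 0.0386), and USP1 did not (−0.11, adjusted p = 0.0608).

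Mitotic genes were set beside these. Of 20, 3 rose after BITC against vehicle, CCNB1, cyclin B1 (0.24, SE 0.049, adjusted p = 0.00720), UBE2C and KIF20A, and 1 rose after BITC+ZA, CDC20 (0.16, SE 0.047, adjusted p = 0.0454). With the offset 4 were called after BITC, all higher, the 3 among them, and CDC20 lost its call (0.084, adjusted p = 0.164). CCNB1 lost its call under 2 of the 12 omissions, and UBE2C, KIF20A and CDC20 under 9 each. After ZA 1 fell, the proliferation marker MKI67 (−0.27, SE 0.056, adjusted p = 0.0176), which stood at 0.004, SE 0.056, adjusted p = 0.982 after both compounds and was higher with both than with ZA (0.28, SE 0.056, adjusted p = 0.00367). The fall of MKI67 after ZA was lost with the offset (−0.18, adjusted p = 0.142) and under 4 of the 12 omissions, and its difference between BITC+ZA and ZA held with the offset (0.22, adjusted p = 0.0297). In BITC+ZA against BITC 9 of the 20 fell and 1 rose, against 8.15% and 6.6% of all genes, with CCNB1 (−0.24, SE 0.049, adjusted p = 0.00403) and CDK1 (−0.22, SE 0.05, adjusted p = 0.00683) lower. With the offset 4 of these 10 calls held, CCNB1 among them (−0.15, adjusted p = 0.00229), and CDK1 did not (−0.096, adjusted p = 0.0840). The mitochondrial share of the libraries, given above, moved with this comparison, and its part in the results of these lists was not tested.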

How the data were processed

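RNA sequencing libraries from MDA-MB-231 cells were compared in 4 groups of 3, assigned from the treatment labels. Raw, unpooled read counts per gene stand in the authors' deposited comparison tables, per the file headers. FPKM values, scaled by length and library total, were deposited by the authors in a separate table, per the file headers. HISAT2, DESeq2 1.20.0 and the build GRCh38 are named in the submitters' processing notes. The counter, the annotation release and strandedness were not given in the sources used here.

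The 43 genes and all other lists were chosen with earlier results of these data known. The 6 count tables were merged on gene identifiers into 27412 genes, with 0 conflicts. The 4593 values absent from a table, all with an FPKM of 0, were entered as 0. Library totals were 15874857 to 17375664 counts. The test was that of edgeR 4.0.16 (R 4.3.3), on counts as deposited: trimmed mean of M values, filterByExpr, 1 model of the 4 groups over all 12 libraries (8 residual degrees of freedom, common biological coefficient of variation 0.0607) and the two-sided quasi-likelihood F test. P-values were adjusted by Benjamini-Hochberg within each of 7 comparisons over 14950 genes, and called below 0.05. Each standard error was obtained by dividing the size of the log2 fold change by the square root of F. Levels are CPM after normalization, with SD and n = 3. The procedure was tested on simulated data.

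GC content came from GENCODE transcripts, and the offset was a spline (5 degrees of freedom) of GC content and length per library. Alternatives were DESeq2 1.42.0, its size factors, other filters (none, or a mean of at least 100 counts), only the groups compared, the replicate number as a block, each library left out, the offset with and without ZA library 1, and limma 3.58.1 on log2(FPKM + 1) and log2(FPKM + 0.1). All 43 genes are accounted for. Those called in any comparison, those with the 3 largest fold changes in each direction, and key enzymes of each step are given in full, and from other lists at most 6 called genes per comparison by smallest p, with MKI67, CCNA2, CDKN1A, MYC and TOP2A. The values of 1 gene on the nucleotide supply list are not reported here.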

Additional observations from a re-analysis of the deposited data

Results flagged for a closer look

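RPA3, the small subunit of the single-strand binding protein, differed in its change under ZA between cells with and without BITC, by a test of that difference. Adding ZA to BITC lowered it (log2 fold change −0.36, SE 0.074, adjusted p = 0.00436), whereas ZA against vehicle gave 0.075 (SE 0.072, adjusted p = 0.674). The interaction was −0.432 on the log2 scale (SE 0.10, edgeR's quasi-likelihood F test, Benjamini-Hochberg adjusted p = 0.0233), and each of the 3 BITC+ZA libraries lay below the other 9. With 1 of the 12 libraries left out, the adjusted p lay between 0.0102 and 0.0876, above the threshold without BITC+ZA library 2 or 3, BITC library 1 or vehicle library 1 or 2.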

How the results depend on the processing

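Over the 7 comparisons 30 gene calls were made, and all 30 held with DESeq2, with its size factors and without ZA library 1, while 20 held with the GC and length offset, 22 with limma, 16 with the offset without ZA library 1 and 16 with only the groups compared, where the interaction could not be fitted. The replicate numbers do not pair the libraries (correlation of deviations between same-numbered libraries from −0.0668 to 0.0653), and with the number as a block all 30 held and the counts were 2 for BITC against vehicle, 3 for the interaction and within 1.5 times otherwise. BITC against vehicle, 1 call, gave 2 without a filter, 5 with only the groups compared, 3 with the offset, 6 with the offset without ZA library 1, and 0 with limma at either pseudocount. ZA against vehicle, 0 calls, gave 2 with DESeq2, 1 without a filter, and 4 with the offset in either form. BITC+ZA against vehicle, 3 calls, gave 9 with only the groups compared, 5 with the offset and 6 with the offset without ZA library 1. BITC+ZA against ZA, 3 calls, gave 0 with only the groups compared, 5 with the offset without ZA library 1, and 1 with limma at either pseudocount. ZA against BITC, 10 calls, gave 0 with only the groups compared and 16 with the offset without ZA library 1. The interaction, 1 call, gave 3 with DESeq2, 2 without a filter, 2 with a mean of at least 100 counts, 2 with the offset, and 0 with limma at either pseudocount. With 1 library left out, the counts ran from 0 to 5 for BITC, 0 to 11 for ZA and 0 to 9 for BITC+ZA against vehicle, 3 to 19 for BITC+ZA against BITC, 1 to 6 for BITC+ZA against ZA, 2 to 23 for ZA against BITC and 0 to 4 for the interaction. Signs turned, into a call, for TK1 (−0.122 with the offset, −0.128 with the offset without ZA library 1) and E2F1 (−0.142 and −0.145) in BITC+ZA against BITC, and for POLD1 (−0.136 and −0.153) and E2F1 (−0.158 and −0.190) in ZA against BITC. Without ZA library 1 and without the offset, E2F1 (0.128) and POLD1 (0.183) were called higher in ZA against BITC. The cause was not tested in these cases. Group means differed by at most 1.30-fold for any of the 43 genes. Some smaller differences were called, such as RPA1 in ZA against BITC (log2 fold change −0.13). Others of small size may not be detectable with 3 libraries a group.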
